A study of Mus musculus with 40 samples.

Results

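The genes described are 9 that encode hepatokines, proteins that the liver secretes into the blood, taken by their symbols from the count tables of both genotypes: Fgf21, Gdf15, Angptl4, Angptl8, Angptl6, Inhbe, Ahsg, Fetub and Lect2. All 9 were found in both tables among 40594 genes, and all 9 passed the filter on low counts that 12942 genes passed. Liver RNA was sequenced from 40 male mice aged 5 months, in 8 groups of 5. Wild-type (WT) mice were C57BL6/J, and knockout (KO) mice carried PPARγ-loxP alleles and an Alb-Cre transgene, whose albumin promoter drives Cre in hepatocytes, so other cells of the liver keep the gene. For 3 months from an age of 2 months each genotype received a low-fat control diet (control), the control diet with 0.01% pioglitazone hydrochloride by weight (Pio), a high-fat diet with 60% of its calories from fat (HFD), or the HFD with the same share of pioglitazone (HFD-Pio). Pioglitazone is a thiazolidinedione drug that activates PPARγ. The WT mice were not described as loxP littermates. Counts of the genotypes came in a table each, and a difference between genotypes cannot be told apart from a difference between tables. Levels were therefore tested within a genotype, and between genotypes only the sizes of the Pio and HFD effects were compared.

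Hepatokines let the liver signal its metabolic state to other tissues. Fgf21 and Gdf15 are hormones induced by nutrient and cell stress, and the transcription factor ATF4 of the integrated stress response is a known activator of both, while Fgf21 and Angptl4 are also classical targets of the fatty acid receptor PPARα. The angiopoietin-like proteins ANGPTL4 and ANGPTL8 govern how tissues take up triglyceride by inhibiting lipoprotein lipase, Inhbe encodes the liver-enriched βE subunit of activin E, and Ahsg, Fetub and Lect2 encode plasma proteins that have been tied to insulin action.

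Library totals over the genes of both tables ran from 15788242 to 49857017 counts in WT mice and from 21542958 to 28334251 in KO mice. One library stood apart. In KO Pio mouse 13 the mean absolute deviation of log2 CPM (counts scaled to library size) from the median of its own group was 1.399 over all genes tested, against 0.108 to 0.493 in the other 39 mice. Its summed level of 8 hepatocyte markers was 34806 CPM, below the 78151 to 154578 CPM of the other mice, and albumin mRNA (Alb) was at 10663 CPM against 45240 to 109384. Its rRNA share of 0.0617% was the lowest of all libraries, against 0.335% or more in the other KO mice, but WT HFD mouse 829 was close to it at 0.0647%. Tests that use the KO Pio group are therefore given with and without mouse 13. All 8 groups share 1 estimate of the spread, and more genes were called in WT mice in the fit without this mouse, 15.6% of all genes against 3.91% for WT Pio against WT control. Summed marker levels of the other 39 mice ranged from 182 to 953 CPM for macrophages, 177 to 642 for stellate cells and fibroblasts, 109 to 295 for endothelial cells, 32.4 to 116 for cholangiocytes, 147 to 2029 for blood, 1.72 to 666 for pancreatic acinar cells and 0.355 to 15.9 for skeletal muscle. Sums of mouse 13 lay within these ranges, at 242, 216, 122, 79.2, 280.1, 146 and 0.372 CPM in the same order. Its acinar sum of 146 CPM stood against a median of 11.4 in the other mice. Some single markers of mouse 13 lay outside the other mice, below them or above them. Examples are the macrophage marker Clec4f, at 32.4 CPM against 45.1 to 167, and the stellate marker Des, at 19.0 CPM against 4.60 to 13.4. Pparg itself was measured at 5.79 to 14.2 CPM in WT mice and 3.01 to 9.90 in KO mice, ranges that overlap, and gene totals also count exons outside the deleted part and cells without Cre. In whole liver, fewer cells of a type and less RNA per cell cannot be told apart.

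Compared per kilobase of exon, the 9 genes differed widely in level. In WT livers the mean was 4002 CPM per kilobase for Ahsg, 221 for Fetub, 155 for Angptl8, 71.0 for Lect2, 35.9 for Angptl4, 11.3 for Gdf15, 11.0 for Fgf21, 10.7 for Inhbe and 7.22 for Angptl6. Ahsg stood alone at the top, with 2157 CPM per kilobase in its lowest WT mouse against 461 in the highest mouse for Fetub. The last 4 genes overlapped over the WT mice, from 2.22 to 36.1 CPM per kilobase for Gdf15, 1.46 to 38.1 for Fgf21, 2.35 to 21.6 for Inhbe and 3.30 to 10.3 for Angptl6. In KO livers the means were 3428 for Ahsg, 198 for Fetub, 88.9 for Lect2, 68.5 for Angptl8, 45.2 for Angptl4, 9.68 for Gdf15, 9.52 for Angptl6, 5.66 for Inhbe and 4.22 for Fgf21 on the same scale. Without mouse 13 the KO means of Angptl8, Gdf15 and Angptl6 were 52.2, 6.74 and 6.65 CPM per kilobase, and those of the other 6 genes lay between 4.14 and 3527.

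All positions are on GRCm38. Fgf21 lies on the minus strand at chr7:45613886-45615490 and Gdf15 on the minus strand at chr8:70629393-70632456. Angptl4 lies on the minus strand at chr17:33773750-33781830, Angptl8 on the plus strand at chr9:21835510-21837347 and Angptl6 on the minus strand at chr9:20873808-20879727. Inhbe lies on the minus strand at chr10:127348857-127354411, Ahsg on the plus strand at chr16:22891277-22899449, Fetub on the plus strand at chr16:22918334-22939778 and Lect2 on the minus strand at chr13:56542464-56548502. Angptl8 sits inside Dock6, which is on the other strand, and their exons share 0 bases. The exons of Angptl6 share 265 bases with A230050P20Rik on the other strand and those of Ahsg share 62 bases with the antisense gene Gm30505. The counting was not stated to use strand, so reads from such shared bases cannot be assigned, and the authors' counting left out ambiguous reads.

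Promoter windows from 250 bases before to 50 bases after a start given by RefSeq were held for 8 of the 9 genes. They are shown for 3 genes because their windows hold the same 8 letters, TGATGCAA or on the other strand TTGCATCA, the core of an element that ATF4 binds together with C/EBP proteins. The letters were chosen after the windows had been read. Each window is written 5′ to 3′ on the strand of its gene, with the core in capitals.
Fgf21, minus strand, chr7:45615441-45615740: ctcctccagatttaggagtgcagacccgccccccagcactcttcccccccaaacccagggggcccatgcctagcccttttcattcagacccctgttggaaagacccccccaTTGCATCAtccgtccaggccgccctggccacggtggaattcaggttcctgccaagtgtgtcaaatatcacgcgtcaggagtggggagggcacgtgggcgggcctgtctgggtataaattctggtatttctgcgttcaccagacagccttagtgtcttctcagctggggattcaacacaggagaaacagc
Angptl8, plus strand, chr9:21835260-21835559: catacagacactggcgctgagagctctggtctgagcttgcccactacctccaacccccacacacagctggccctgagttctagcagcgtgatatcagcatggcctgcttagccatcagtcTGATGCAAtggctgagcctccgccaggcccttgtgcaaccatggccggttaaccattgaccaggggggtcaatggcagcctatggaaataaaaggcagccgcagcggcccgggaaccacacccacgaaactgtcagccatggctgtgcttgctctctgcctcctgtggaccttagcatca
Inhbe, minus strand, chr10:127351799-127352098: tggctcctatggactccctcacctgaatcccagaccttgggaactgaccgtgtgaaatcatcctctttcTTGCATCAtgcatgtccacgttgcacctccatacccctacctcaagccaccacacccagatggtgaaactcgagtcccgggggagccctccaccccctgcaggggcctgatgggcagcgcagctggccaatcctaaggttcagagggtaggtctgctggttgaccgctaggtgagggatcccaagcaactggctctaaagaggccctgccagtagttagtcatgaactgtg
The core began 139 bases before the RefSeq start in Fgf21, 130 bases in Angptl8 and 181 bases in Inhbe. It ran in the same direction as the gene in Angptl8 and in the opposite direction in Fgf21 and Inhbe. The Inhbe window lies wholly inside the gene's span at chr10:127348857-127354411, which was taken from GENCODE and begins further upstream. The Inhbe core is therefore not upstream of the gene as placed there. Among all 32851 windows of GRCm38.p6, 0.895% held the core on either strand. A direct repeat of AGGTCA with a single base between the copies, the DR1 arrangement that PPAR and RXR bind, was in 0 of the windows of these genes and in 0.0396% of all windows, where the repeat overlaps the half-site AGGTCA by construction. The half-site alone occurred in 16.3% of all windows and in 1 of 2 windows of Gdf15. These matches describe letters only, and binding was not measured here.

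**Figure D1:**
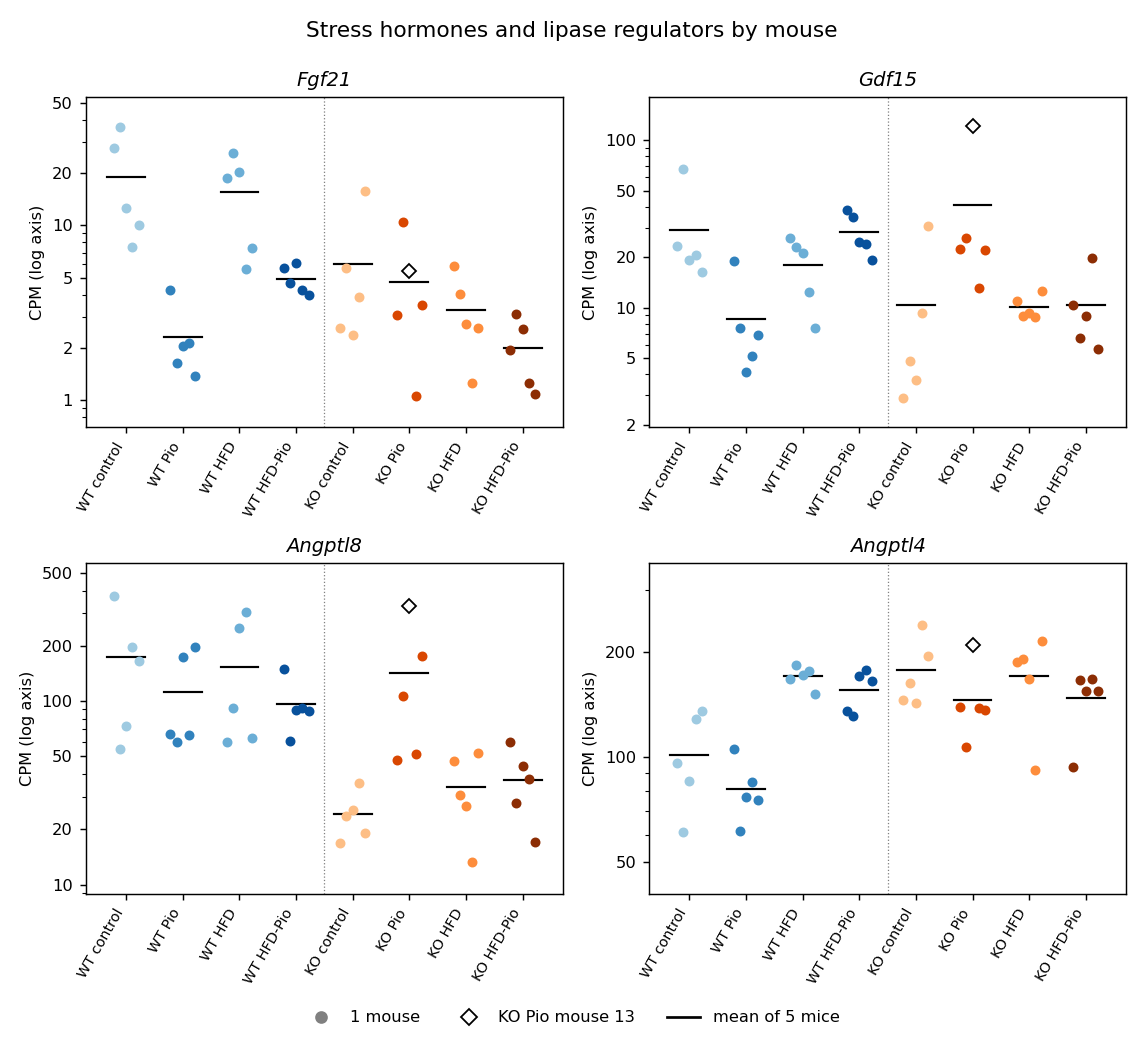
Level of Fgf21, Gdf15, Angptl8 and Angptl4 in CPM (log axis) for each of 40 mice in 8 groups, with the mean of 5 mice as a line and KO Pio mouse 13 as an open diamond. Fgf21 is at 1.39 to 4.28 CPM in WT Pio mice, below the 7.51 to 36.3 CPM of WT control mice.

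The first question was what Pio did on the control diet in WT livers. Fgf21, which acts through FGFR1 and its co-receptor β-Klotho, fell with Pio. WT control mice had 27.9, 36.3, 12.6, 7.51 and 10.1 CPM, a mean of 18.9 ± 12.6 (SD, n = 5). WT Pio mice had 4.28, 1.64, 2.05, 2.12 and 1.39 CPM, a mean of 2.30 ± 1.15 (SD, n = 5). Every WT Pio mouse lay below every WT control mouse, and the control mean was 8.22-fold the Pio mean. The fitted log2 fold change was -3.01 ± 0.55 (SE), with an adjusted p of 0.00101 by edgeR's quasi-likelihood test (Benjamini-Hochberg method over all genes tested, as throughout). The exact permutation test, two-sided, gave p = 0.00794, the smallest that 5 mice against 5 allow. Fgf21 was called, meaning an adjusted p of at most 0.05, in all 40 fits that left out 1 mouse each, at -3.38 to -2.63 on the log2 scale. It was the only 1 of the 9 genes that was called in this comparison, where 3.91% of all genes tested were, and the only 1 whose groups did not overlap, as 7.53% of all genes did.

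Gdf15, a stress-induced member of the TGFβ superfamily that lowers food intake through the hindbrain receptor GFRAL, was also lower in most WT Pio mice. Its levels were 23.2, 66.8, 19.2, 20.7 and 16.4 CPM in WT control mice (mean 29.3 ± 21.1, SD, n = 5). In WT Pio mice they were 19.1, 7.57, 4.11, 5.17 and 6.82 CPM (mean 8.55 ± 6.04, SD, n = 5). The groups overlapped through WT Pio mouse 841 alone, the other 4 Pio mice lying below all control mice. The log2 fold change of -1.76 ± 0.56 (SE) missed the threshold in edgeR's quasi-likelihood test (adjusted p = 0.0676), and alternatives gave adjusted p values from 0.00403 to 0.264. It passed without WT Pio mouse 841 (-2.31, adjusted p = 0.0217), KO control mouse 5 (-1.76, adjusted p = 0.0351) or KO Pio mouse 13 (-1.76, adjusted p = 0.0160) in the same test, and with DESeq2 (-1.77, adjusted p = 0.0216) and limma with sample weights (-1.81, adjusted p = 0.00403). In this comparison DESeq2 called 6.28% and limma 23.9% of all genes, and edgeR without mouse 13 called 15.6%.

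Angptl8 was spread widely in WT mice, with 375, 54.9, 73.2, 197 and 165 CPM in control, 65.9, 59.7, 173, 65.5 and 196 CPM in Pio, 59.7, 91.6, 249.8, 304 and 62.6 CPM in HFD and 150.2, 60.6, 89.6, 92.0 and 88.8 CPM in HFD-Pio mice. All 4 of these groups overlapped, and all 20 WT mice lay above the highest KO control mouse, at 35.7 CPM, which was not tested. The other 7 genes had log2 fold changes between -0.63 (Angptl8) and 0.39 (Inhbe) with Pio in WT control-diet livers, and their groups overlapped. Over the 9 genes the median was -0.32, beside -0.02 over all genes tested. With limma, which called 23.9% of all genes here, 2 further genes passed, Angptl4 at -0.57 (adjusted p = 0.0111) and Ahsg at -0.43 (adjusted p = 0.0457). Angptl4 was at 101 ± 30.8 CPM in WT control and 80.9 ± 16.3 CPM in WT Pio mice (SD, n = 5 each), and edgeR's quasi-likelihood test gave it -0.32 ± 0.21 (SE) with an adjusted p of 0.445.

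**Figure D2:**
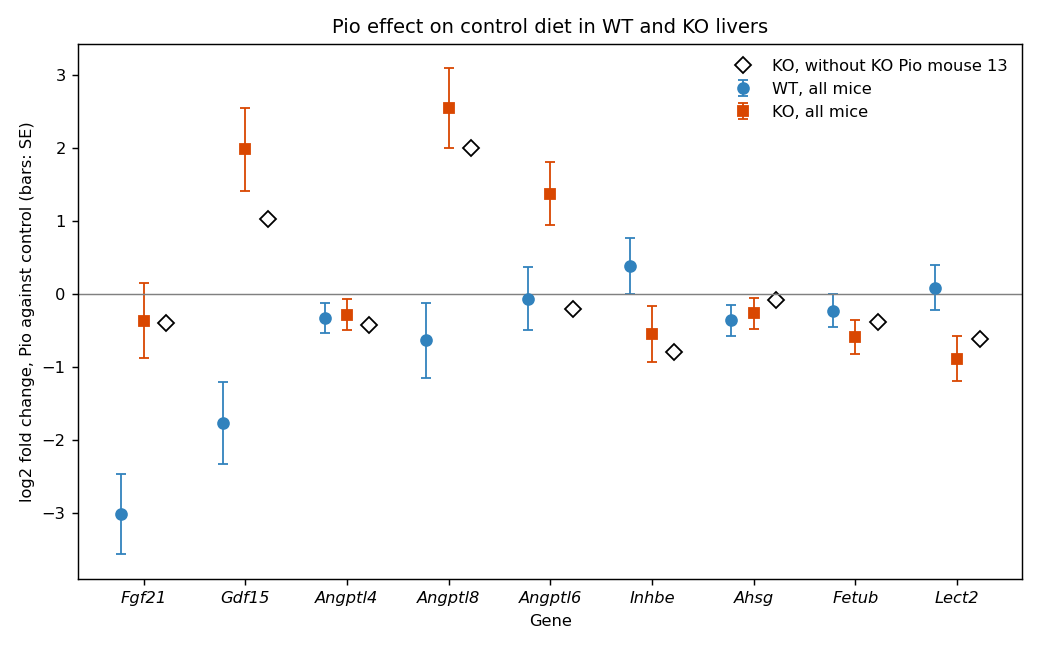
Log2 fold change of Pio against control diet for the 9 genes, in WT mice and KO mice with SE as bars and in KO mice without KO Pio mouse 13 as open diamonds without bars. Fgf21 is at -3.01 in WT and -0.36 in KO mice, and Angptl6 moves from 1.38 to -0.21 when mouse 13 is left out.

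The same comparison in KO livers asked what Pio did without hepatocyte PPARγ. Fgf21 did not separate the groups, with 2.58, 5.71, 2.36, 3.90 and 15.7 CPM in KO control mice and 3.09, 10.5, 5.47, 1.06 and 3.50 CPM in KO Pio mice 11 to 15. Its log2 fold change was -0.36 ± 0.51 (SE), with an adjusted p of 0.671 by edgeR's quasi-likelihood test, and -0.39 (adjusted p = 0.925) without mouse 13. Angptl8 was higher with Pio. Angptl8, also called betatrophin, acts after feeding and is induced by insulin and lipogenic signals. Its levels were 16.7, 23.5, 25.6, 35.7 and 19.2 CPM in KO control mice (mean 24.1 ± 7.34, SD, n = 5) and 47.6, 106, 328, 51.2 and 175 CPM in KO Pio mice 11 to 15 (mean 142 ± 116, SD, n = 5). All 5 KO Pio mice, mouse 13 at 328 CPM among them, lay above all 5 KO control mice.

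For Angptl8 the log2 fold change was 2.55 ± 0.55 (SE), with an adjusted p of 0.00986 by edgeR's quasi-likelihood test. Without mouse 13 the 4 remaining mice had a mean of 95.0 ± 59.8 CPM (SD, n = 4) and still lay above all controls, with an exact permutation p of 0.0159, two-sided, the smallest that 4 against 5 allow. The log2 fold change was then 2.00 and the adjusted p 0.0782, so the call across all genes was lost. It was also lost when the KO mice were fitted alone (2.59, adjusted p = 0.0831), a fit in which 0% of all genes were called. In this comparison 3 of the 9 genes were called higher and 0 lower, where 9.01% of all genes tested were called in either direction. Without mouse 13, 0 of the 9 genes and 0.512% of all genes were called. With all mice, groups did not overlap in 1 of the 9 genes (Angptl8) and in 3.7% of all genes, a share that was not computed without mouse 13.

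The other 2 calls in KO Pio mice, Gdf15 and Angptl6, were also lost in edgeR without mouse 13. Limma with sample weights, with mouse 13 included, called Gdf15 but not Angptl6, among 9.4% of all genes. Gdf15 was at 2.90, 4.80, 3.71, 9.29 and 30.9 CPM in KO control mice and at 22.3, 26.1, 121, 13.2 and 22.1 CPM in KO Pio mice 11 to 15. The groups overlapped through KO control mouse 5, at 30.9 CPM, with the other 4 controls below all KO Pio mice. The log2 fold change was 1.99 ± 0.57 (SE), adjusted p = 0.0295 by edgeR's quasi-likelihood test, and 1.03 (adjusted p = 0.494) without mouse 13. This call was also lost without KO control mouse 1 (1.75, adjusted p = 0.0833), 2 (1.80, adjusted p = 0.0692), 3 (1.79, adjusted p = 0.0755) or 4 (1.95, adjusted p = 0.0681).

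Angptl6, whose protein has been described as protecting mice from obesity and insulin resistance, was at 5.21 to 16.3 CPM in 39 mice and at 101 CPM in KO Pio mouse 13. The fitted change of 1.38 ± 0.44 (SE), adjusted p = 0.0422 by edgeR's quasi-likelihood test, became -0.21 (adjusted p = 0.852) without that mouse. Leaving out any 1 of the 5 KO control mice also ended the call, at 1.35 to 1.41 with adjusted p values of 0.0696 to 0.0903. Of the genes in the lists below, Rarres2, Igf1, Fgfr3 and Acvr2b also lost their call without any 1 of these mice. Pnpla3, Fads1 and Pck2 kept theirs without each of them, and the others lost theirs without some. The share of all genes called in those fits is not given here.

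Angptl4 without mouse 13 was at 107 to 139 CPM in the 4 remaining KO Pio mice, below the 143 to 238 CPM of all KO control mice (exact permutation p = 0.0159, two-sided), with a log2 fold change of -0.42 and an adjusted p of 0.459 by edgeR's quasi-likelihood test. With mouse 13, at 209 CPM, the groups overlapped. The share of all genes whose groups did not overlap without mouse 13 was not computed.

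Lect2, a chemotactic protein whose plasma level is raised in fatty liver, was at 103, 98.9, 93.4, 90.3 and 63.8 CPM in KO control and at 67.1, 33.7, 12.3, 59.9 and 70.4 CPM in KO Pio mice 11 to 15. Only KO control mouse 5, at 63.8 CPM, lay within the range of the Pio mice. Lect2 had a log2 fold change of -0.89 ± 0.31 (SE) and an adjusted p of 0.0613 by edgeR's quasi-likelihood test, and -0.62 (adjusted p = 0.370) without mouse 13. It passed at 0.0269 to 0.0494 when any 1 of WT control mouse 832, KO HFD mouse 9 or KO Pio mice 11, 14 and 15 was left out. It also passed with DESeq2 (-0.88, adjusted p = 0.0407) and limma (-0.58, adjusted p = 0.0421), which called 11% and 9.4% of all genes in this comparison.

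The Pio effects on the control diet differed between genotypes for 3 of the 9 genes, all more positive in KO mice, where 7.87% of all genes tested were called in either direction. For Fgf21 the difference, KO minus WT, was 2.66 ± 0.74 (SE) on the log2 scale, with an adjusted p of 0.0260 by edgeR's quasi-likelihood test. For Gdf15 it was 3.75 ± 0.80 (SE, adjusted p = 0.00547), where KO Pio was higher and WT Pio lower than its control. For Angptl8 it was 3.18 ± 0.75 (SE, adjusted p = 0.0106), with WT mice at 173 ± 128 CPM on control diet and 112 ± 66.8 CPM on Pio (SD, n = 5 each). Without KO Pio mouse 13 the differences were 2.61 (adjusted p = 0.0417), 2.79 (adjusted p = 0.0198) and 2.61 (adjusted p = 0.0291), and the same 3 genes were called, among 5.78% of all genes.

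The call for Fgf21 in this difference was less steady than those for Gdf15 and Angptl8, which held in all 40 fits that left out a mouse. It was lost without WT control mouse 832 (2.26, adjusted p = 0.0585), WT Pio mouse 845 (2.54, adjusted p = 0.0524) or KO control mouse 1 (2.46, adjusted p = 0.0526) in edgeR's quasi-likelihood test. The call was also lost in edgeR without the filter on low counts (2.67, adjusted p = 0.0587), where 2.03% of all genes were called. Limma (1.65, adjusted p = 0.106), which called 15.4% of all genes, did not call it either. Of the other 6 genes, Angptl6 had the largest difference at 1.44 ± 0.61 (SE, adjusted p = 0.122 by edgeR), which was -0.15 without mouse 13.

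The next comparison asked what Pio did on the HFD. In WT mice 0 of the 9 genes were called by edgeR, 2 at an unadjusted p under 0.05, 1 by DESeq2 and 2 by limma. Of all genes tested 1.08% were called by edgeR, 15.6% had an unadjusted p under 0.05, and DESeq2 called 2.78% and limma 8.4%. Fgf21 came nearest, with 18.6, 25.9, 20.3, 5.67 and 7.44 CPM in WT HFD mice and 5.74, 4.69, 6.10, 4.28 and 4.00 CPM in WT HFD-Pio mice. The WT HFD-Pio mice lay close together, and 3 of them were below all WT HFD mice. The log2 fold change was -1.65 ± 0.52 (SE), adjusted p = 0.109 by edgeR's quasi-likelihood test. It passed without KO Pio mouse 13 (-1.64, adjusted p = 0.0420), with DESeq2 (-1.65, adjusted p = 0.0427) and with limma (-1.46, adjusted p = 0.0327). Without mouse 13 edgeR called 11.6% of all genes in this comparison.

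Fetub, a liver-made cystatin-family inhibitor of the protease ovastacin, was at 450, 612, 447, 905 and 505 CPM in WT HFD mice and at 305, 334, 389, 338 and 471 CPM in WT HFD-Pio mice. All WT HFD-Pio mice but 1 (mouse 840) lay below all WT HFD mice, with a log2 fold change of -0.67 ± 0.23 (SE) and an adjusted p of 0.140 by edgeR's quasi-likelihood test. Fetub passed without KO Pio mouse 13 (-0.65, adjusted p = 0.0285) and with limma (-0.54, adjusted p = 0.0251). In WT HFD-Pio against WT HFD mice 0 of the 9 genes and 7.12% of all genes had groups that did not overlap.

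In KO mice on the HFD, 0 of the 9 genes were called with Pio by edgeR, 0 reached an unadjusted p under 0.05, and DESeq2 and limma also called 0. Of all genes 0.0155% were called by edgeR, 1.04% had an unadjusted p under 0.05, and DESeq2 called 0.0618% and limma 0%. The log2 fold changes ran from -0.73 (Fgf21) to 0.16 (Angptl6). Fgf21 was at 5.87, 4.05, 2.75, 1.26 and 2.60 CPM in KO HFD mice and at 1.95, 3.11, 2.55, 1.26 and 1.08 CPM in KO HFD-Pio mice. These groups overlapped, as they did for all 9 genes, while 0.61% of all genes did not overlap.

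The diet dependence of the Pio effect was tested as a difference of effects, HFD minus control diet. In WT mice 0 of the 9 genes were called by edgeR, 1 reached an unadjusted p under 0.05, DESeq2 called 0 and limma 1. Of all genes 0.0773% were called by edgeR, 12.1% had an unadjusted p under 0.05, and DESeq2 called 0.981% and limma 10.6%. Gdf15 had the difference of 2.41 ± 0.78 (SE) with an adjusted p of 0.178 by edgeR's quasi-likelihood test, which was 2.43 (adjusted p = 0.0398) without KO Pio mouse 13, where 5.25% of all genes were called. In KO mice edgeR called 0 of the 9 genes and 0% of all genes, 2 of the 9 genes reached an unadjusted p under 0.05, and DESeq2 and limma called 0, beside 12.1% of all genes at an unadjusted p under 0.05, 0% called by DESeq2 and 0.402% by limma. Between genotypes on the HFD the Pio effect differed in 0 of the 9 genes by edgeR, DESeq2 and limma, with 0 at an unadjusted p under 0.05. Of all genes 0.0927% were called by edgeR, 0.201% by DESeq2 and 2.74% by limma, and 5.93% had an unadjusted p under 0.05.

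**Figure D3:**
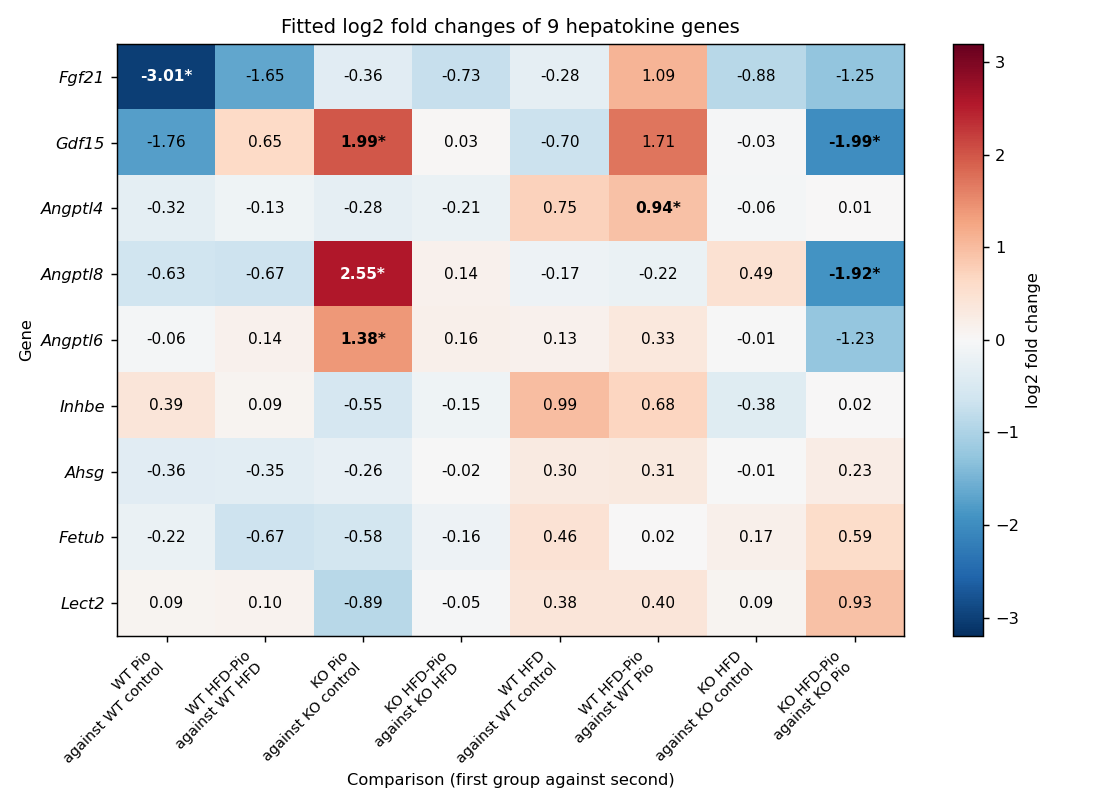
Fitted log2 fold change of each of the 9 genes (rows) in 8 comparisons of 2 groups (columns), coloured from blue (lower in the first group) to red (higher), with calls at an adjusted p of at most 0.05 in bold with an asterisk. The calls are Fgf21 at -3.01 in WT Pio mice, Angptl4 at 0.94 in WT HFD-Pio against WT Pio mice, and 5 values in comparisons that hold the KO Pio group.

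The HFD comparisons asked what the fat-rich diet did, first without Pio. Angptl4, a secreted inhibitor of lipoprotein lipase that fasting and fatty acids induce, was at 96.4, 61.0, 85.3, 128 and 135 CPM in WT control mice and at 167, 183, 171, 176 and 152 CPM in WT HFD mice (means 101 ± 30.8 and 170.0 ± 11.9, SD, n = 5 each). All 5 WT HFD mice lay above all 5 WT control mice (exact permutation p = 0.00794, two-sided). The HFD mean was 1.68-fold the control mean, and the log2 fold change of 0.75 ± 0.21 (SE) had an adjusted p of 0.0621 by edgeR's quasi-likelihood test. It passed without WT control mouse 834 (0.83, adjusted p = 0.0486), WT control mouse 835 (0.86, adjusted p = 0.0338), KO HFD mouse 9 (0.73, adjusted p = 0.0338) or KO Pio mouse 13 (0.73, adjusted p = 0.0181), and with DESeq2 (0.74, adjusted p = 0.0239). Without mouse 13 edgeR called 6.55% of all genes.

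Among the 9 genes 0 were called by edgeR for WT HFD against WT control, 3 had an unadjusted p under 0.05, DESeq2 called 1 and limma 0. Of all genes 1.31% were called by edgeR, 13.2% had an unadjusted p under 0.05, and DESeq2 called 2.91% and limma 2.53%. Groups did not overlap in 1 of the 9 genes (Angptl4) and in 3.05% of all genes. Inhbe was at 55.5, 51.0, 12.5, 20.6 and 38.5 CPM in WT control and at 55.3, 39.4, 79.7, 115 and 64.2 CPM in WT HFD mice. The HFD mean of 70.7 ± 28.7 CPM was 1.98-fold the control mean of 35.6 ± 18.7 CPM (SD, n = 5 each), with a log2 fold change of 0.99 ± 0.38 (SE) that was not called (adjusted p = 0.213 by edgeR).

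With Pio in the food of both groups, Angptl4 rose with the HFD. WT Pio mice were at 106, 61.5, 76.7, 84.8 and 75.6 CPM and WT HFD-Pio mice at 136, 131, 170.5, 177 and 165 CPM. The groups did not overlap, the HFD-Pio mean of 156 ± 21.1 CPM was 1.93-fold the Pio mean of 80.9 ± 16.3 CPM (SD, n = 5 each), and the log2 fold change was 0.94 ± 0.21 (SE), adjusted p = 0.0179 by edgeR's quasi-likelihood test. The adjusted p rose just past the threshold without WT HFD-Pio mouse 838 (0.91, adjusted p = 0.0503) or WT Pio mouse 842 (0.85, adjusted p = 0.0507), 843 (0.92, adjusted p = 0.0506) or 845 (0.91, adjusted p = 0.0622).

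Gdf15 was at 38.2, 34.8, 24.8, 24.1 and 19.1 CPM in WT HFD-Pio mice. The lowest of them lay just above the highest WT Pio mouse, 841, which rounds to the same 19.1 CPM, and far above the next, at 7.57 CPM. Its log2 fold change of 1.71 ± 0.56 (SE) had an adjusted p of 0.125 by edgeR's quasi-likelihood test, and of 0.0246 without WT Pio mouse 841 (2.25), 0.0318 without KO Pio mouse 13 (1.70) and 0.000412 by limma (2.24). Without mouse 13 edgeR called 8.68% of all genes here, and limma called 22.7%. Fgf21 had a log2 fold change of 1.09 ± 0.53 (SE) in the same comparison, with 4 of 5 WT HFD-Pio mice above all WT Pio mice, and was not called (adjusted p = 0.348 by edgeR). In WT HFD-Pio against WT Pio mice 1 of the 9 genes (Angptl4) was called, beside 1.22% of all genes, and groups did not overlap in 2 of the 9 genes (Gdf15 and Angptl4) and in 6.49% of all genes.

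Fat cells also express Angptl4, and the summed level of 8 adipocyte markers, 5 of which passed the filter, moved with diet and Pio in WT livers, from 1072 to 1949 CPM in control, 2622 to 4894 in Pio, 2936 to 5137 in HFD and 4186 to 5726 in HFD-Pio mice. In the 39 mice other than mouse 13 the single markers reached 5199 CPM for Car3, 471 for Cfd, 193 for Fabp4, 30.3 for Adrb3, 4.76 for Retn, 0.670 for Adipoq, 0.628 for Plin1 and 0.164 for Lep. Most of the sum was thus Car3, and Adipoq, Plin1 and Lep stayed at or below 0.670 CPM. The paper reports Cfd and Fabp4 as induced by Pio in WT but not KO livers on the control diet. A change in this sum is therefore not a measure of fat cells, and its part in the Angptl4 levels was not tested.

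In KO livers the HFD alone changed 0 of the 9 genes by edgeR, DESeq2 and limma, with 0 at an unadjusted p under 0.05. Of all genes 0.185% were called by edgeR, 0.41% by DESeq2 and 4.19% by limma, and 4.6% had an unadjusted p under 0.05. Angptl4 was at 146, 162, 143, 238 and 195 CPM in KO control and at 187, 191, 167, 92.1 and 214 CPM in KO HFD mice, and its log2 fold change was -0.06 ± 0.21 (SE). Groups overlapped in all 9 genes, and did not overlap in 3.04% of all genes. The difference of the HFD effect between genotypes without Pio, KO minus WT, was called for 0 of the 9 genes by edgeR, DESeq2 and limma, with 2 at an unadjusted p under 0.05. Of all genes 0.0618% were called by edgeR, 0.703% by DESeq2 and 1.43% by limma, and 9.43% had an unadjusted p under 0.05. These 2 genes were Angptl4 (-0.80 ± 0.29, SE, adjusted p = 0.323) and Inhbe (-1.37 ± 0.54, SE, adjusted p = 0.370).

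KO HFD-Pio against KO Pio mice gave 2 calls, both lower and both tied to mouse 13, where 4.96% of all genes tested were called, and 0.0931% without mouse 13. Gdf15 was at 10.4, 6.54, 8.95, 19.9 and 5.64 CPM in KO HFD-Pio mice, 4 of them below all KO Pio mice, with a log2 fold change of -1.99 ± 0.57 (SE, adjusted p = 0.0414 by edgeR), which was -1.03 (adjusted p = 0.974) without mouse 13. Angptl8 was at 59.9, 27.8, 44.4, 37.5 and 17.0 CPM in KO HFD-Pio mice, with -1.92 ± 0.53 (SE, adjusted p = 0.0409 by edgeR) and -1.36 (adjusted p = 0.637) without mouse 13. Both calls were also lost without any 1 of KO HFD-Pio mice 16 to 20, at adjusted p values of 0.0682 to 0.105. Of the genes in the lists below that were called in this comparison, all but Pnpla3 were likewise lost without each of these mice. The share of all genes called in those fits is not given here.

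Fetub did not overlap between these groups. Its levels were 363, 365, 402, 446 and 482 CPM in KO HFD-Pio mice and 315, 299, 125, 322 and 304 CPM in KO Pio mice 11 to 15, and without mouse 13 the groups still did not overlap (exact permutation p = 0.0159, two-sided). The log2 fold change was 0.59 ± 0.23 (SE, adjusted p = 0.102 by edgeR) and 0.40 (adjusted p = 0.989) without mouse 13. With all mice Fetub was the only 1 of the 9 genes without overlap here, as were 2.43% of all genes, a share that was not computed without mouse 13. The difference of the HFD effect between genotypes under Pio was called for 0 of the 9 genes by edgeR, 1 by DESeq2 and 2 by limma, with 5 at an unadjusted p under 0.05. Of all genes 0.0155% were called by edgeR, 0.719% by DESeq2 and 7.53% by limma, and 19.3% had an unadjusted p under 0.05. Gdf15 came nearest, at -3.71 ± 0.80 (SE, adjusted p = 0.0669 by edgeR), and -2.73 (adjusted p = 0.134) without mouse 13, where 0.00775% of all genes were called.

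**Figure D4:**
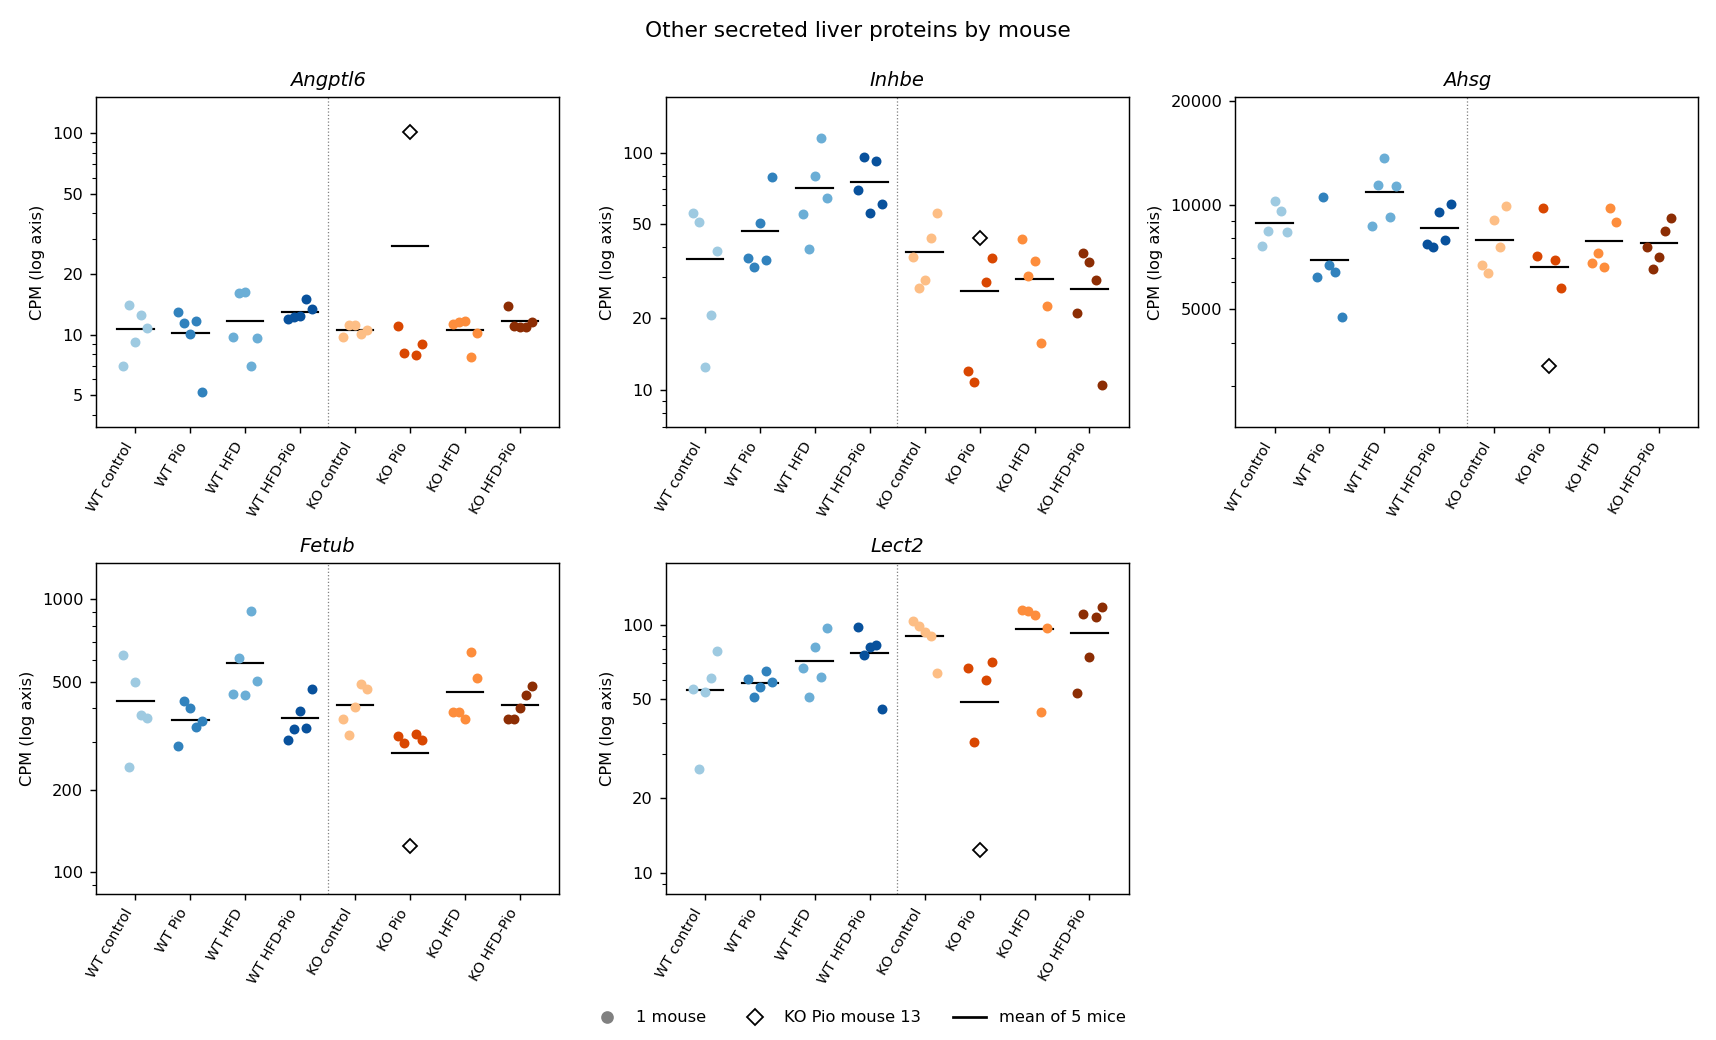
Level of Angptl6, Inhbe, Ahsg, Fetub and Lect2 in CPM (log axis) for each of 40 mice in 8 groups, with the mean of 5 mice as a line and KO Pio mouse 13 as an open diamond. Mouse 13 is at 101 CPM for Angptl6 and at 125 CPM for Fetub, outside the range of the other 39 mice in both.

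Ahsg, which encodes fetuin-A, a plasma carrier of calcium phosphate and an inhibitor of the insulin receptor kinase, was called in 0 comparisons by edgeR, and by limma in WT Pio against WT control mice as given above. Group means were 8844, 6911, 10872 and 8547 CPM in WT control, Pio, HFD and HFD-Pio mice and 7909, 6609, 7869 and 7738 CPM in the matching KO groups, with SDs of 1051 to 2314 CPM (n = 5 each). No log2 fold change of Ahsg passed 0.36 in size in the 8 comparisons of 2 groups, and the lowest mouse was KO Pio mouse 13 at 3419 CPM, without which the KO Pio mean was 7406 ± 1703 CPM (SD, n = 4). Fetub had means of 423, 363, 584 and 367 CPM in WT control, Pio, HFD and HFD-Pio mice, and Lect2 had 54.7, 58.3, 71.4 and 76.6 CPM in the same groups, with all groups of Lect2 overlapping in WT mice. Inhbe was at 36.1, 33.0, 50.6, 35.4 and 78.8 CPM in WT Pio and 69.9, 96.0, 55.6, 92.5 and 61.0 CPM in WT HFD-Pio mice, with a log2 fold change of 0.68 ± 0.38 (SE) that was not called (adjusted p = 0.440 by edgeR). Inhbe had KO group means of 38.3, 26.2, 29.5 and 26.6 CPM, and the largest of its log2 fold changes within KO mice was -0.55 ± 0.38 (SE) with Pio on the control diet, which was not called (adjusted p = 0.355 by edgeR). Without mouse 13 the KO Pio mean of Inhbe was 21.9 ± 12.4 CPM (SD, n = 4) and the log2 fold change -0.79 (adjusted p = 0.503).

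Genes around these hepatokines were followed in 5 lists that hold none of the 9 genes, read as counts of called genes with the median log2 fold change beside that of all genes tested. With all mice, calls over all genes were 3.91% for WT Pio against control and 1.08% for WT HFD-Pio against HFD. They were 1.31% for WT HFD against control and 1.22% for WT HFD-Pio against Pio. Without mouse 13 these shares were 15.6%, 11.6%, 6.55% and 8.68%, in either direction. For the Pio effect on the control diet, KO minus WT, the shares were 7.87% with all mice and 5.78% without mouse 13. List counts of these fits are to be read beside these shares. For fits that left out any other mouse the share over all genes is not given. A loss of list calls in those fits cannot be told apart from a loss over all genes. Of 21 tested genes of the integrated stress response and ATF4 targets, 8 fell and 1 rose (Vldlr) with Pio in WT control-diet livers, where Fgf21 fell, with a median of -0.92 beside -0.02 over all genes. Among those that fell were Atf3, a stress-induced transcription factor (-3.08 ± 0.73, SE, adjusted p = 0.0132 by edgeR), Psat1, an enzyme of serine synthesis (-2.16 ± 0.58, SE, adjusted p = 0.0274), and Mthfd2, a mitochondrial folate enzyme (-1.96 ± 0.46, SE, adjusted p = 0.0112). Atf3 was at 16.3 ± 26.9 CPM in WT control and 1.92 ± 0.591 CPM in WT Pio mice (SD, n = 5 each). Without WT control mouse 832, which also held the highest Fgf21 and Gdf15 levels of its group, 3 genes of the list fell and Atf3, Psat1 and Mthfd2 were not among them, while without KO Pio mouse 13, 11 fell and 1 rose. Slc3a2, a subunit of amino acid transporters, was called in all 40 fits that left out a mouse (-1.08, adjusted p = 0.00361 with all mice).

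In KO livers on the control diet 1 gene of that list rose with Pio and 0 fell, with a median of 0.47 beside 0.03 over all genes. It was Pck2, the mitochondrial form of a gluconeogenic enzyme, at 1.19 ± 0.27 (SE, adjusted p = 0.0126 by edgeR), and 0.88 (adjusted p = 0.106) without mouse 13. The Pio effect on the control diet was more positive in KO than in WT mice for 9 of the 21 genes and more negative for 0, with a median difference of 1.37 beside 0.06 over all genes. Without mouse 13 these were 7 and 1, and without WT control mouse 832 they were 3 more positive. Slc3a2 (1.53, adjusted p = 0.00431 by edgeR), Pck2 (2.23, adjusted p = 0.00108) and Cebpb (2.04, adjusted p = 0.0150) kept this call in all 40 fits that left out a mouse. Without mouse 13 the differences were 1.13 for Slc3a2 (adjusted p = 0.00419 by edgeR), 1.91 for Pck2 (adjusted p = 0.00117) and 1.01 for Cebpb (adjusted p = 0.0436). With the HFD in WT mice 4 genes of the list fell, Atf3 (-3.37 ± 0.76, SE, adjusted p = 0.0153 by edgeR), Psat1 (-2.78 ± 0.61, SE, adjusted p = 0.0136), Ddit4, an inhibitor of mTORC1 (-1.92 ± 0.46, SE, adjusted p = 0.0242), and Mthfd2 (-1.91, adjusted p = 0.0252). Each of these 4 calls was lost without WT HFD mouse 828 and without WT control mouse 832, while without mouse 13, 9 genes of the list fell. In KO HFD-Pio against KO Pio mice 3 genes fell (Atf5, Sesn2 and Pck2), and 0 without mouse 13.

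PPARα target genes, all 24 of them tested, gave calls in WT mice with Pio and with the HFD that were all higher with all mice in the fit. With Pio on the control diet 5 rose and 0 fell, with a median of 0.63. Without mouse 13, 12 rose and 1 fell, where 15.6% of all genes were called. Of the 5, Vnn1, a pantetheinase, rose at 1.81 ± 0.36 (SE, adjusted p = 0.00207 by edgeR), Acaa1b, a peroxisomal thiolase, at 1.60 ± 0.38 (SE, adjusted p = 0.0136) and Pex11a, a peroxisome division factor, at 0.83 (adjusted p = 0.00207). These 3 were called in all 40 fits that left out a mouse, and Cpt1a (0.60, adjusted p = 0.0274) in 36.

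On the HFD 3 of the PPARα targets rose with Pio in WT mice, among them Acaa1b (1.48 ± 0.38, SE, adjusted p = 0.0472 by edgeR) and Vnn1 (1.34 ± 0.35, SE, adjusted p = 0.0491), called in 15 and 13 of the 40 fits that left out a mouse. Without WT HFD mouse 828, 0 of the list rose, and without mouse 13, 9. With the HFD alone 3 rose, among them Pex11a (0.79 ± 0.16, SE, adjusted p = 0.00839 by edgeR) and Cpt1a, which admits fatty acids to mitochondria (0.63 ± 0.16, SE, adjusted p = 0.0354), called in 40 and 33 of those fits. Without WT HFD mouse 826 only 1 rose, and without mouse 13, 9. In WT HFD-Pio against WT Pio mice, where Angptl4 rose, Cpt2 (0.70 ± 0.16, SE, adjusted p = 0.0195 by edgeR) and the transcription factor gene Creb3l3 (0.66 ± 0.15, SE, adjusted p = 0.0186) rose. Both were lost without WT HFD-Pio mouse 838 or 840 or WT Pio mouse 843 or 845, while without mouse 13, 8 of the list rose.

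In KO mice few PPARα targets were called. With Pio on the control diet 1 rose (Acot3) and 2 fell (Cyp4a10 among them), and without mouse 13, 0 were called. With the HFD alone Cyp4a10 fell (-2.67 ± 0.48, SE, adjusted p = 0.00889 by edgeR), which was lost without KO control mouse 4 (adjusted p = 0.0556), and 2 of the list fell without mouse 13. In KO HFD-Pio against KO Pio mice Acot3 fell, a call lost without mouse 13. The Pio effect on the control diet was more negative in KO than in WT mice for 9 of the 24 genes and more positive for 0, with a median of -0.87 beside 0.06 over all genes, and these were 11 and 0 without mouse 13. Of the 9, Vnn1 (-2.39, adjusted p = 0.00487 by edgeR) and Cyp4a10 (-3.03, adjusted p = 0.00600) were called in all 40 fits that left out a mouse. The HFD effect without Pio was more negative in KO mice for 1 gene, Cyp4a10 (-4.04, adjusted p = 0.00663). Without mouse 13 it was so for 7 genes, where 1.05% of all genes were called.

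SREBP1c and ChREBP target genes, the lipogenic genes among which Angptl8 is often counted, were all 20 tested. With Pio in WT livers 0 were called on either diet. Without mouse 13, 3 rose on the control diet and 4 on the HFD, where 15.6% and 11.6% of all genes were called. With the HFD 7 fell in WT mice (median -1.11), 9 without mouse 13 and 2 without WT control mouse 833, and under Pio 6 fell (median -1.09), 11 without mouse 13 and 1 without WT HFD-Pio mouse 838. Pnpla3, a lipid droplet protein, fell from 57.7 ± 63.7 to 2.37 ± 0.861 CPM (SD, n = 5 each) without Pio, at -4.60 ± 0.72 (SE, adjusted p = 0.000445 by edgeR). In the same WT livers Angptl8 gave -0.17 ± 0.51 without Pio and -0.22 ± 0.51 under Pio (SE), with overlapping groups.

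In KO livers 3 of the 20 lipogenic genes rose with Pio on the control diet, where 9.01% of all genes were called in either direction, with a median of 0.64 beside 0.03 over all genes. They were Pnpla3 (3.15 ± 0.67, SE, adjusted p = 0.00906 by edgeR), the acetyl-CoA carboxylase gene Acacb (1.57 ± 0.43, SE, adjusted p = 0.0261) and the desaturase gene Fads1 (0.77 ± 0.18, SE, adjusted p = 0.0138). Without mouse 13, 2 were called, Pnpla3 at 3.27 (adjusted p = 0.0216) and Fads1 at 0.74 (adjusted p = 0.0444), and Acacb was at 1.63 (adjusted p = 0.0922). Acacb was also lost without KO control mouse 1, 3, 4 or 5. Pnpla3 was at 3.73 ± 4.76 CPM in KO control and 33.3 ± 18.7 CPM in KO Pio mice (SD, n = 5 each). In KO HFD-Pio against KO Pio mice 2 fell, Pnpla3 at -3.44 ± 0.68 (SE, adjusted p = 0.0164 by edgeR) and Srebf1 at -1.54 ± 0.41 (SE, adjusted p = 0.0399). Without mouse 13 Pnpla3 was still called (-3.54, adjusted p = 0.0375) and Srebf1 was at -0.36, while the call of Pnpla3 was lost without KO HFD-Pio mouse 17, 19 or 20.

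Of 30 tested genes for other hepatokines and liver-secreted hormones, 1 rose and 0 fell with Pio on the control diet in WT mice. Without mouse 13, 5 rose and 4 fell, where 15.6% of all genes were called. The 1 that rose with all mice was Serpinb1a, whose protein promotes β-cell growth, at 0.914 ± 0.536 CPM in WT control and 8.68 ± 2.78 CPM in WT Pio mice (SD, n = 5 each), a log2 fold change of 3.26 ± 0.50 (SE, adjusted p = 6.75e-05 by edgeR). On the HFD Serpinb1a also rose with Pio, at 2.92 ± 0.48 (SE, adjusted p = 0.000639 by edgeR), and both calls held in all 40 fits that left out a mouse. The Pio effect on Serpinb1a was more negative in KO than in WT mice on the control diet (-3.87, adjusted p = 0.00113 by edgeR) and on the HFD (-3.72, adjusted p = 0.00690).

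The activin subunit genes related to Inhbe moved with diet and Pio in WT mice. Inhbc rose with the HFD, from 97.0 ± 28.4 to 211 ± 49.5 CPM (SD, n = 5 each), at 1.12 ± 0.20 (SE, adjusted p = 0.00177 by edgeR), called in all 40 fits that left out a mouse, where Inhbe gave 0.99 and was not called. With Pio on the HFD Inhba (-1.19 ± 0.25, SE, adjusted p = 0.00875) and Inhbc (-0.85 ± 0.20, SE, adjusted p = 0.0221) fell, the latter in 34 of the 40 fits, and not without WT HFD mouse 828 or 829. In KO mice Inhbc fell with Pio on the control diet, at -0.77 ± 0.20 (SE, adjusted p = 0.0198 by edgeR) and -0.99 (adjusted p = 0.00628) without mouse 13, a call lost without KO control mouse 1 or 4.

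In that KO comparison Rarres2 and Igf1 fell, and neither was called without mouse 13. KO HFD-Pio against KO Pio mice gave 1 higher (Rarres2) and 2 lower genes (Igfbp2 and Smoc1), and 0 without mouse 13. The Pio effect on the control diet was more positive in KO mice for 2 genes (Enho and Metrnl) and more negative for 4 (Serpinb1a, Rarres2 and Igf1 among them), which were 0 and 4 without mouse 13.

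The receptors, cofactors and enzymes on which these hepatokines act gave few calls in the 20 genes tested. Lpl, the lipase that ANGPTL4 and ANGPTL8 restrain, rose with Pio in WT control-diet livers from 23.2 ± 22.9 to 76.2 ± 28.5 CPM (SD, n = 5 each), at 1.72 ± 0.50 (SE, adjusted p = 0.0422 by edgeR). It was called in 27 of the 40 fits that left out a mouse, with an adjusted p of up to 0.130, and among others not without WT control mouse 831, 833, 834 or 835. Fgfr2 fell with the HFD in WT mice, at -0.58 ± 0.12 (SE, adjusted p = 0.00844 by edgeR), in all 40 of those fits, and rose with Pio on the HFD, at 0.46 ± 0.12 (SE, adjusted p = 0.0491), in 14 of them and not without any 1 of the WT HFD mice. In KO mice Acvr2b and Fgfr3 rose with Pio on the control diet and Mmp14 fell in KO HFD-Pio against KO Pio mice, and the Pio effect on Fgfr3 was more positive in KO than in WT mice, and 0 of these were called without mouse 13. In the comparisons not named for a list, 0 of its genes were called by edgeR with all mice.

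The genes whose pattern was most like that of each hepatokine were taken by Spearman's rho over 40 mice, on log2 CPM centred within each genotype, as a description of libraries that share group, depth and composition. Angptl4 was most like Herpud1, an endoplasmic reticulum stress gene (rho 0.87), Creb3l3, a liver transcription factor of lipid metabolism (0.86), and Acot8, a peroxisomal thioesterase (0.84). Lect2 was most like Akr1c6 (0.87), Pecr (0.86) and Ugt2a3 (0.84). Fetub was most like Serpina1a (0.82), Vtn (0.81) and Hrg (0.81), 3 genes of plasma proteins, and Ahsg was most like Itih2 (0.79), Serpinf2 (0.78) and Serpina1a (0.72).

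Inhbe was most like Sec22c (0.76), G0s2, an inhibitor of the lipase ATGL (0.75), and Rab43 (0.73). Fgf21 was most like Ankrd13b (0.74), Ighmbp2 (0.72) and Prkcd (0.70). Angptl8 was most like Mid1ip1, an activator of acetyl-CoA carboxylase (0.70), Mast3 (0.69) and the Notch target Hes1 (0.68), and Gdf15 was most like 2410006H16Rik (0.70), Epha2 (0.68) and Hes1 (0.67). Angptl6 was most like Med28 (0.80), Fnta (0.71) and Pth1r (0.71). Without mouse 13 these values lay between 0.65 and 0.87.

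Among the 9 genes themselves the closest pairs were Ahsg and Fetub (rho 0.61), Angptl4 and Inhbe (0.53) and Fgf21 and Gdf15 (0.50), and these were 0.58, 0.51 and 0.48 without mouse 13. Ahsg, Fetub and Hrg follow each other on the plus strand of chromosome 16 with no other protein-coding gene between them, Fetub beginning 18884 bases after the end of Ahsg and Hrg 11293 bases after the end of Fetub.

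**Figure D5:**
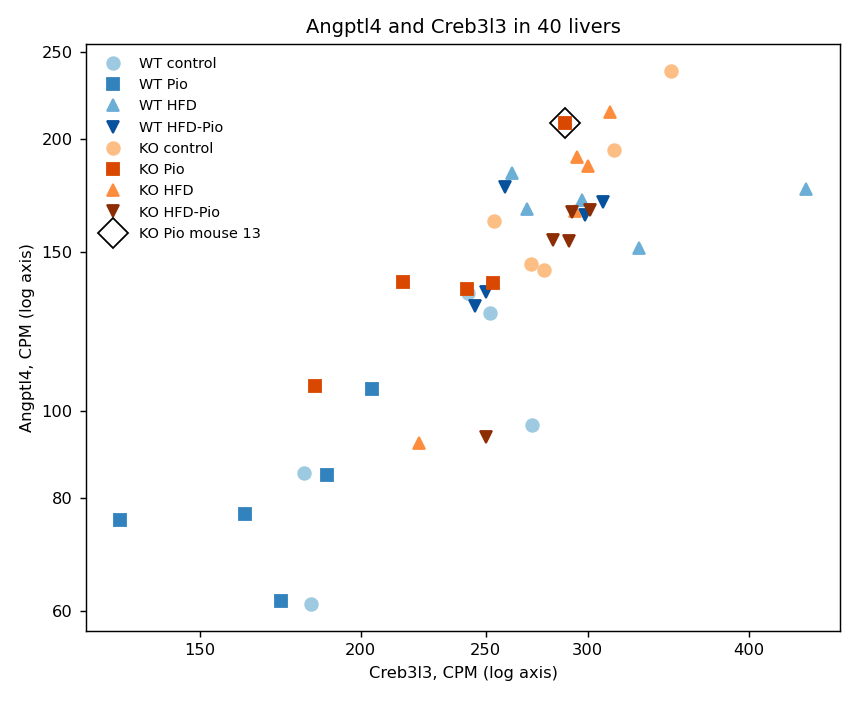
Level of Angptl4 against that of Creb3l3 in CPM (both log axes) in 40 mice, coloured by group, with KO Pio mouse 13 in an open diamond. Spearman's rho was 0.86 on values centred within each genotype, and the WT Pio mice lie at the lower left, at 61.5 to 106 CPM of Angptl4.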

How the data were processed

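Poly-A selected liver RNA of 40 mice was sequenced. The authors aligned reads to GRCm38 of Ensembl release 76 with STAR 2.0.4b and deposited raw counts per gene of uniquely aligned, unambiguous reads from featureCounts 1.4.5, 1 column per mouse in a table per genotype. Strandedness was not given in the sources used here. The deposited WT table also held each gene's GC percent, which was not used, and 0 count columns matched no sample. Repeated lines (598 in the KO and 574 in the WT table) did not differ within a gene and were kept once, and 40594 genes were in both tables.

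From these counts 355 rRNA genes and 27297 genes under 1 CPM in all but at most 4 of 40 mice were removed, which left 12942. Counts were tested with edgeR 4.0.16 (quasi-likelihood, robust, TMM normalisation, 1 mean for each of 8 groups, a spread shared by all groups) in R 4.3.3, with p values adjusted by the Benjamini-Hochberg method over all genes tested and calls at 0.05. Single genes were compared by an exact permutation test, two-sided, with scipy 1.17.1 on TMM-scaled CPM. The code was tested on simulated data. Alternatives were DESeq2 1.42.0, limma 3.58.1 with sample weights (the test used by the authors), library size alone, no filter on low counts, each genotype fitted alone, and each mouse left out in turn. Nothing in the sources says that mice of a group shared a cage or litter. The p values of edgeR rest on a spread between mice that is estimated over all 8 groups. Those of the permutation test rest only on the mice of the groups compared.

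The 9 genes and the lists were chosen with earlier results of these data known. Named from each list were up to 3 called genes with the largest change per comparison of 2 groups, and as like genes the 3 with the highest Spearman rho among genes averaging 5 CPM or more. Some listed genes count in the totals but are not reported here by name. Other listed genes, and the promoter motifs, were named after their values or letters were seen. Gene coordinates were taken from GENCODE on GRCm38 and promoter windows from RefSeq on GRCm38.p6.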

Additional observations from a re-analysis of the deposited data

Results flagged for a closer look

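Of 72 sets of 5 mice (9 genes in 8 groups), 11 held a mouse that stood apart from the other 4 by Dixon's criterion. Chance gives this in about 1 of 20 sets of independent, normally distributed values. The 72 sets share mice and hold untransformed CPM, so that rate is no benchmark for the 11 found here. KO Pio mouse 13 gave 3 of them, at 121 CPM for Gdf15 and 101 CPM for Angptl6, the highest of its group, and at 125 CPM for Fetub, the lowest. KO control mouse 5 was highest for Fgf21 (15.7 CPM) and for Gdf15 (30.9 CPM), and WT Pio mouse 841 for the same genes (4.28 and 19.1 CPM). WT control mouse 832 was highest for Gdf15 (66.8 CPM). KO HFD-Pio mouse 16 was lowest for Angptl4 (93.5 CPM) and highest for Angptl6 (13.9 CPM), and KO HFD mouse 9 was lowest for Lect2 (44.3 CPM).

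The effect of Pio on the control diet differed between genotypes, KO minus WT on the log2 scale, by 2.66 for Fgf21, 3.75 for Gdf15 and 3.18 for Angptl8, by a test of the difference itself in edgeR. The WT and KO mice were counted in separate tables, and the part of mouse 13 in these values is given by the fits without it, at 2.61, 2.79 and 2.61.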

How the results depend on the processing

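With 5 mice a group, differences of the size seen for Gdf15 in WT mice lay close to the threshold. Of 3372 refits of 75 log2 fold changes, 3191 kept direction and side of the threshold, 45 lost a call, 42 gained a call and 94 changed sign. The sign changed for 24 fold changes in any refit, and among called values for Angptl6 in KO Pio mice alone, without mouse 13 and with limma. No paired analysis was possible because each mouse has its own number and no groups share any. The alternative of fitting each genotype alone gives no difference between genotypes. The cause of the changes below was not tested. With library size alone the median log2 fold change of all genes was -0.19 for WT Pio and -0.16 for WT HFD against control, 0.27 for the diet dependence of Pio in WT mice, and for KO minus WT 0.23 (Pio on control diet), 0.14 (HFD) and -0.12 (HFD under Pio), so these changes are to be read relative to that shift.

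Counts of the 9 genes called changed as follows, with the share of all genes called in the same fit in brackets. That share is not given for fits that left out a mouse, other than KO Pio mouse 13 in the sections above. WT Pio against control (1 called, 3.91%) gave 2 with DESeq2 (6.28%), 4 with limma (23.9%), 2 with library size (5.11%), 2 fitted alone (7.52%) and 1 to 2 leaving out a mouse. WT HFD-Pio against HFD (0, 1.08%) gave 1 with DESeq2 (2.78%), 2 with limma (8.4%) and 0 to 2 leaving out a mouse. KO Pio against control (3, 9.01%) gave 4 with DESeq2 (11%), where Lect2 passed too, and 3 with limma (9.4%), with Lect2 in place of Angptl6. The same comparison gave 2 with library size (6.76%), 1 without the filter (2.94%), 0 fitted alone (0%) and 0 to 4 leaving out a mouse. The Pio effect on the control diet, KO minus WT (3, 7.87%), gave 2 with limma (15.4%), 2 without the filter (2.03%) and 2 to 4 leaving out a mouse. WT HFD against control (0, 1.31%) gave 1 with DESeq2 (2.91%), 1 fitted alone (2.77%) and 0 to 1 leaving out a mouse. WT HFD-Pio against Pio (1, 1.22%) gave 2 with DESeq2 (2.94%), limma (22.7%) and fitted alone (1.63%), and 0 to 2 leaving out a mouse. KO HFD-Pio against Pio (2, 4.96%) gave 4 with DESeq2 (7.77%), 0 with limma (2.39%) and 1 with library size (1.24%). The same comparison gave 0 without the filter (0.291%), 0 fitted alone (0%) and 0 to 5 leaving out a mouse. The diet dependence of Pio in WT mice (0, 0.0773%) gave 1 with limma (10.6%) and 0 to 1 leaving out a mouse. The HFD effect under Pio, KO minus WT (0, 0.0155%), gave 1 with DESeq2 (0.719%), 2 with limma (7.53%) and 0 to 1 leaving out a mouse.

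Values of opposite sign were these. With limma they were -0.060 for Lect2 in WT Pio, 0.46 for Fgf21 in WT HFD against control, 0.049 for Angptl8 in WT HFD-Pio against HFD, -0.072 for Fetub in WT HFD-Pio against Pio and -0.19 for Angptl6 in KO Pio mice. In KO HFD-Pio against HFD limma gave -0.092 for Gdf15, -0.014 for Angptl8 and 0.041 for Ahsg, in KO HFD against control 0.89 for Gdf15, 0.11 for Angptl4 and 0.093 for Angptl6, and in KO HFD-Pio against Pio 0.31 for Angptl6. Library size alone gave -0.036 for Lect2 in WT Pio, -0.062 for Angptl6 in WT HFD and 0.011 for Ahsg in KO HFD-Pio against HFD. Without the filter and fitted alone, KO HFD against control gave 0.0084 and 0.0048 for Angptl6 and 0.011 and 0.0089 for Ahsg, and KO HFD-Pio against Pio gave -0.016 and -0.011 for Angptl4 and -0.012 and -0.0034 for Inhbe. DESeq2 gave -0.0088 for Angptl4 in the last comparison.

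Leaving out a mouse changed the sign within these ranges. WT Pio against control gave -0.18 to 0.10 for Angptl6 and -0.085 to 0.26 for Lect2, and WT HFD-Pio against HFD gave -0.048 to 0.33 for Inhbe. KO Pio against control gave -0.86 to 0.38 for Fgf21 and -0.21 to 1.66 for Angptl6. KO HFD-Pio against HFD gave -0.36 to 0.18 for Gdf15, -0.10 to 0.34 for Angptl8, -0.31 to 0.056 for Inhbe, -0.092 to 0.069 for Ahsg and -0.23 to 0.097 for Lect2. WT HFD against control gave -0.55 to 0.10 for Fgf21, -0.031 to 0.27 for Angptl6 and -0.58 to 0.30 for Angptl8. WT HFD-Pio against Pio gave -0.45 to 0.077 for Angptl8 and -0.089 to 0.075 for Fetub. KO HFD against control gave -0.27 to 0.97 for Gdf15, -0.15 to 0.098 for Angptl4, -0.051 to 0.080 for Angptl6, -0.10 to 0.087 for Ahsg and -0.011 to 0.27 for Lect2. KO HFD-Pio against Pio gave -0.097 to 0.17 for Angptl4, -1.50 to 0.37 for Angptl6 and -0.19 to 0.28 for Inhbe.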
